A study of Homo sapiens with 8 samples.

Results

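The immediate early genes described here are EGR1, EGR2, FOS, FOSB, FOSL1, JUN, JUNB, IER2, IER3 and DUSP1, 10 of the 43317 gene names on the array. Their probes were found by gene name in the scanner files, and each gene was measured on 8 arrays. The group was chosen on results of these data, because EGR1 was picked as the highest named gene on the miR-139-5p array (here it ranked 2nd), and because FOS has been described as a target of that miRNA. The EGR1 value on that array is therefore a description and supports nothing.

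HCT116 is a cell line from a colon cancer and PANC-1 one from a pancreatic cancer. HCT116 cells received 1 strand of the miR-139 precursor (miR-139-5p or miR-139-3p) or of the miR-143 precursor (miR-143-5p or miR-143-3p). PANC-1 cells received 1 strand of miR-30c (miR-30c-5p or miR-30c-2-3p) or of miR-30a (miR-30a-5p or miR-30a-3p), each by means of a lipid reagent. On each two-colour array, RNA of transfected cells carried the Cy5 dye and mock RNA from the same line carried Cy3. Mock is labelled as cells with no transfection, so the reference is not a control miRNA, and effects of the procedure and of the miRNA cannot be told apart. Each miRNA had 1 array and no dyes were swapped, so no value has a replicate check, no test between conditions was possible, and a dye effect cannot be told apart from the treatment. In RNA of whole cultures, fewer cells expressing a gene and less of its RNA per cell cannot be told apart.

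Immediate early genes are switched on within minutes of a growth factor, stress or serum signal, without new protein synthesis. Kinases of the ERK, p38 and JNK cascades phosphorylate factors such as the ternary complex factors with SRF and CREB, which sit at serum response elements and cAMP response elements of these genes. Their transcripts are unstable, and many of the proteins are transcription factors that set a second wave of genes: EGR proteins bind GC-rich sites, and FOS and JUN family proteins pair to form AP-1. DUSP1 is a phosphatase that switches the kinases off again.

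The 8 miRNAs are shown because each is the agent of 1 array, with the seed in capitals. The seed, bases 2 to 8, is the part of a miRNA that pairs with its target RNAs. The mature sequences are from RefSeq (GRCh38.p14), 5′ to 3′, and miR-30c-5p and miR-30a-5p hold the same seed.
miR-139-5p: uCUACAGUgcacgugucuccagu
miR-139-3p: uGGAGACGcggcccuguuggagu
miR-143-5p: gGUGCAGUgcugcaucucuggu
miR-143-3p: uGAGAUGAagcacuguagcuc
miR-30c-5p: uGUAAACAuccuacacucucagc
miR-30c-2-3p: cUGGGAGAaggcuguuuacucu
miR-30a-5p: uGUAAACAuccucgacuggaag
miR-30a-3p: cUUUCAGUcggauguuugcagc

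Between 20106 and 22063 genes were detected per array, meaning well above background in at least 1 dye. Repeat spots of a probe had a median SD of 0.039 to 0.065 on the log2 scale. Genes whose probes hold a heptamer matching the transfected seed had a lower median log2 ratio than the other genes on 7 arrays, by -0.02 to -0.09. Under the miR-143-3p label this difference was 0.02, in the opposite direction. Its size is about that of the -0.02 after miR-139-3p, and no spread was computed, so it does not settle whether the label is right. EPCAM and CDH1, epithelial genes, had higher mock levels in HCT116 (12.4 and 9.11 on the log2 scale) than in PANC-1 (8.02 and 6.08), and VIM, a mesenchymal gene, was at 6.61 and 15.5. Genes at background included, 5 of 7 epithelial and 2 of 6 mesenchymal markers were higher in HCT116. The epithelial genes CDX1 (6.58 and 6.65) and LGALS4 (5.81 and 6.21) were higher in PANC-1. SNAI2, a mesenchymal gene, was above background in 3 mock channels of HCT116 and 0 of PANC-1. CDH17 and VIL1, intestinal genes, were not well above background in either mock. Of 5 markers of cells that the lines should lack, 1 was scored above background in all mock channels: PTPRC, close to it at 5.96 in HCT116 and 5.95 in PANC-1.

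Of 79 detected values of the 10 genes, 5 were at least 2-fold higher than mock (log2 ratio of 1 or more) and 4 at least 2-fold lower, and the 9 values lay in 5 genes. EGR1 was higher on 3 arrays, FOSL1 lower on 2, JUN higher on 1 and lower on 1, IER3 lower on 1 and DUSP1 higher on 1. No value of EGR2, FOS, FOSB, JUNB or IER2 passed 2-fold. None of the 9 lay under the miR-143-3p label, so 9 of 69 values passed without it. With the scanner's own log ratio, or with a smaller offset in the background correction, the count was 18 instead of 9, and EGR2, FOS and FOSB, whose probes were close to background, held most of the added values.

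Against all detected genes, the counts in HCT116 were as follows. On the miR-139-5p array, 1 of the 10 genes was at least 2-fold higher, beside 0.0587% of all genes, and 0 were lower, beside 0.201%, and nothing is read from this contrast because the group was chosen on it. On the miR-139-3p array 0 were higher, beside 2.11% of all genes, and 1 was lower, beside 2.82%. On the miR-143-5p array 1 was higher, beside 0.356%, and 0 were lower, beside 1%. The array labelled miR-143-3p had 0 higher, beside 0.517%, and 0 lower, beside 0.925%.

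In PANC-1, 2 of the 10 genes were at least 2-fold higher on the miR-30c-5p array, beside 0.747% of all genes, and 0 were lower, beside 0.445%. The miR-30c-2-3p array had 0 higher, beside 1.71%, and 1 lower, beside 4.14%. For miR-30a-5p, 9 of the 10 genes were detected, 0 were higher, beside 0.306%, and 0 lower, beside 0.263%. After miR-30a-3p, 1 was higher, beside 0.372%, and 2 were lower, beside 1.1%. With 10 genes, 1 value moves such a share far from the background, so the values of each gene are given below.

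On no array were all detected members on the same side of 0, as the plot of log2 ratios by gene shows. Of the 10 genes, 9 were above 0 after miR-139-5p, 7 after miR-139-3p, 8 after miR-143-5p and 3 under the miR-143-3p label. In PANC-1 the counts were 6 after miR-30c-5p, 2 after miR-30c-2-3p, 4 of 9 detected after miR-30a-5p and 5 after miR-30a-3p. Of all detected genes, 51.1% to 55.8% were above 0, depending on the array. The median log2 ratio over the detected members was 0.13 on the miR-139-5p array, 0.29 after miR-139-3p, 0.26 after miR-143-5p and -0.16 under the miR-143-3p label. It was 0.04 after miR-30c-5p, -0.45 after miR-30c-2-3p, -0.01 after miR-30a-5p and 0.07 after miR-30a-3p, while the median of all genes lay between 0.00 and 0.02 on every array. Measured against the mean of the 4 HCT116 mock channels, the miR-139-3p median was -0.03 in place of 0.29 and the miR-139-5p median -0.02 in place of 0.13. The medians near 0 turned too, that of miR-30a-5p to 0.11 under median centring and that of miR-30a-3p to -0.03 by the scanner log ratio. Centring also raised the median of all genes on the miR-30a-5p array to 0.15, so the members' median stayed slightly below it. The lowest median was that of miR-30c-2-3p.

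**Figure D1:**
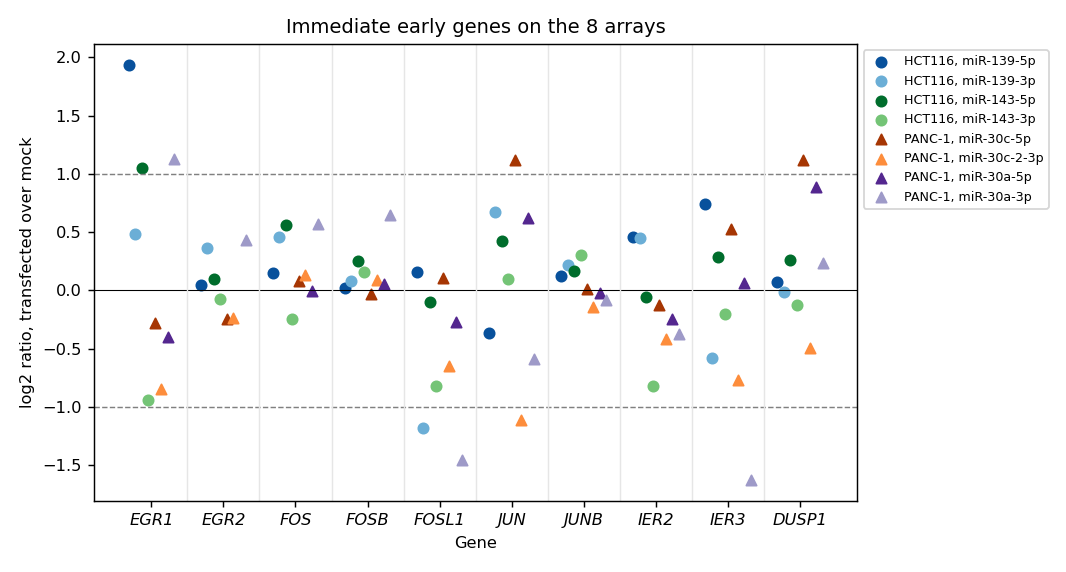
Log2 ratio of transfected over mock RNA for each of the 10 genes (x axis), 1 point per array, circles for HCT116 and triangles for PANC-1, with dashed lines at 2-fold. EGR1 reached 1.94 after miR-139-5p, IER3 was at -1.63 after miR-30a-3p, and the values of EGR2, FOS, FOSB, JUNB and IER2 stayed between the dashed lines.

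EGR1, a zinc finger transcription factor, had the widest range of the group, from -0.94 to 1.94. On the HCT116 arrays its log2 ratio was 1.94 after miR-139-5p, 0.48 after miR-139-3p, 1.05 after miR-143-5p and -0.94 under the miR-143-3p label. In PANC-1 it was -0.28 after miR-30c-5p, -0.85 after miR-30c-2-3p, -0.40 after miR-30a-5p and 1.13 after miR-30a-3p. The 3 values past 2-fold were thus 1 array of miR-139, 1 of miR-143 and 1 of miR-30a, and the other strand of the same precursor gave less than 2-fold each time. As folds they were 3.83 after miR-139-5p, where EGR1 ranked 2nd from the top of 20443 genes, 2.07 after miR-143-5p, where it ranked 57th of 20498, and 2.18 after miR-30a-3p, where it ranked 38th of 22063. All 3 stayed past 2-fold under each of the 7 ways of processing, with ranges of 1.34 to 2.19, 1.05 to 1.57 and 1.11 to 1.68. Without background subtraction and at an offset of 1, EGR1 also passed 2-fold lower on other arrays. These values were -1.03 and -1.02 under the miR-143-3p label and -1.18 and -1.41 after miR-30c-2-3p.

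The channel levels of EGR1, on a log2 scale shared by the arrays, show what these ratios rest on. The mock channels of HCT116 read 8.43 and 8.50 on the miR-139-5p and miR-139-3p arrays, and 9.54 and 9.64 on the miR-143-5p and miR-143-3p arrays. The transfected channels in the same order read 10.36, 8.98, 10.59 and 8.69. After miR-139-5p and miR-143-5p the transfected level was thus above all 4 mock levels of the line, and the levels for miR-139-3p and the array labelled miR-143-3p lay within them. Depending on the array, 55.3% to 79.4% of all detected genes lay outside the mocks of their line, so this position alone sets no gene apart. Against the mean of the 4 mocks, EGR1 was -0.04 after miR-139-3p in place of 0.48. The mock levels in PANC-1 lay between 7.42 and 7.48, and the transfected levels were 7.14, 6.63, 7.04 and 8.56 in the order of the ratios above, so 3 lay below the mocks and that of miR-30a-3p above. The value for miR-30c-5p was 0.04 under median centring in place of -0.28.

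**Figure D2:**
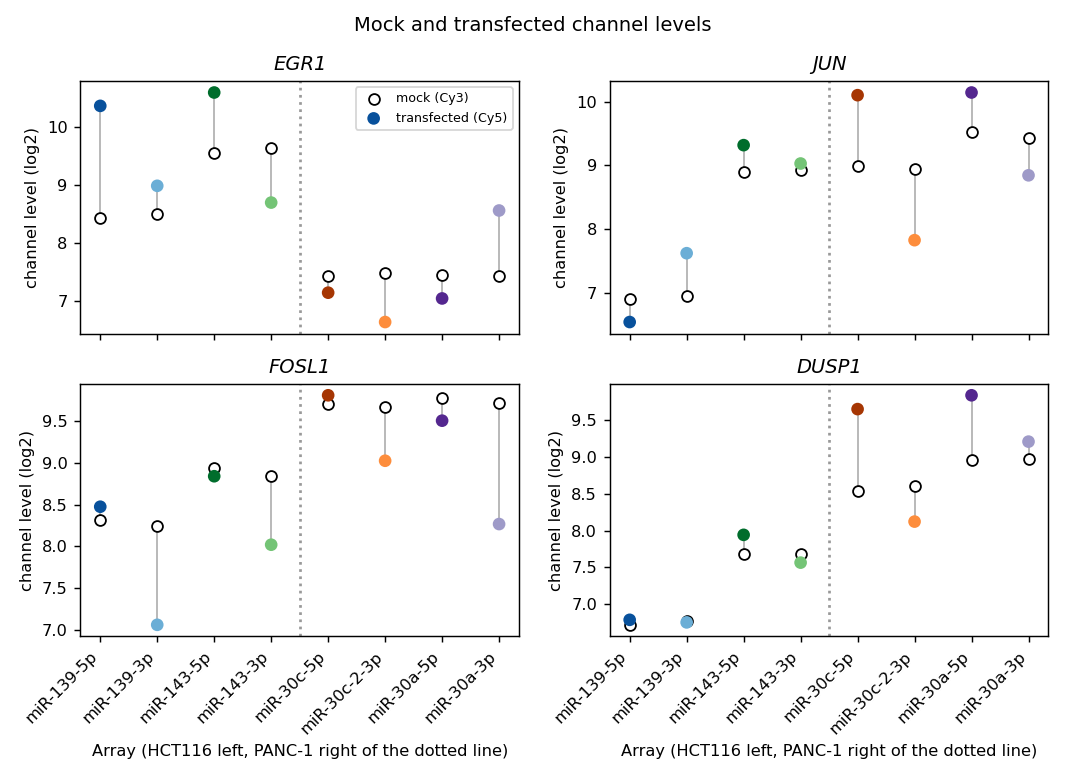
Channel levels (log2, y axis) of EGR1, JUN, FOSL1 and DUSP1 on the 8 arrays, open circles for the mock channel and filled circles for the transfected channel, joined within an array. EGR1 reached 10.36 and 10.59 after miR-139-5p and miR-143-5p from mock levels of 8.43 and 9.54, and the JUN mock levels of the miR-143 arrays lay above those of the miR-139 arrays.

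EGR2, a related zinc finger factor, stayed within 2-fold. In HCT116 its log2 ratio was 0.04 after miR-139-5p, 0.36 after miR-139-3p, 0.10 after miR-143-5p and -0.07 under the miR-143-3p label. In PANC-1 it was -0.24 after miR-30c-5p, -0.23 after miR-30c-2-3p and 0.43 after miR-30a-3p, and after miR-30a-5p it was not well above background in either dye (-0.02). The probe was close to background, with a Cy3 intensity of 22.4 to 34.0 over a background of 15 to 17, so its ratios are compressed by the offset in the background correction. The scanner's log ratio for miR-30a-3p was 2.09 in place of 0.43. EGR1 and EGR2 had the same sign on 8 of 8 arrays, the value not above background included (Pearson r = 0.60, Spearman rho = 0.67 over the 8 arrays, which share near-identical mock channels within a precursor), a count that median centring lowers because EGR1 after miR-30c-5p turns positive.

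Promoters are shown for EGR1 and DUSP1, the genes past 2-fold whose promoter holds a serum response element or a cAMP response element. RefSeq (GRCh38.p14) gave promoters for 8 of the 10 genes, and FOSL1 and IER3 had no entry. Only the 250 bases before the start were searched, on both strands, so an element further upstream would be missed. The element searched for SRF was the CArG box, CC, then 6 letters A or T, then GG, which was found in 1.16% of 35116 promoters and in EGR1 and EGR2. The EGR1 window (chr5:138465229-138465478, plus strand) held it at -105 to -96 and at -83 to -74 from the start, in capitals below, and an EGR site (GCGNGGGCG, 8.41% of promoters) at -198 to -190. In EGR2, 1 of its 3 promoter entries held the CArG box, at -71 to -62.
EGR1 promoter: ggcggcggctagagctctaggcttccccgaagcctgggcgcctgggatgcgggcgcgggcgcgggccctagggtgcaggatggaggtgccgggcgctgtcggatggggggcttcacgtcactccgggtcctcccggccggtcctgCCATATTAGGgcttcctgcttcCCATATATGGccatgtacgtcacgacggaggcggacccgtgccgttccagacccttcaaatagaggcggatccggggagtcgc

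FOS, the founding member of the AP-1 proteins, was within 2-fold on every array. Its log2 ratio in HCT116 was 0.15 after miR-139-5p, 0.46 after miR-139-3p, 0.56 after miR-143-5p and -0.24 under the miR-143-3p label. In PANC-1 it was 0.08 after miR-30c-5p, 0.13 after miR-30c-2-3p, -0.01 after miR-30a-5p and 0.57 after miR-30a-3p. The highest FOS values were thus those of miR-143-5p and miR-30a-3p, 2 of the arrays on which EGR1 was past 2-fold, and the value after miR-139-5p was 0.15. Cy3 intensity was 26.5 to 85.3 over a background of 17 to 19, and the scanner's log ratio for miR-30a-3p was 1.51.

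The FOS probe contains a heptamer that pairs with bases 2 to 7 of miR-139-5p followed by an A, a motif typical of miRNA target sites. Sites in the members' probes are shown with the matching letters in capitals, because they are the places where the measured stretch of RNA itself could pair with a transfected miRNA. The FOS probe lies at chr14:75748214-75748273 (hg19, plus strand), the JUNB probe at chr19:12902998-12903057 (plus) and the IER2 probe at chr19:13265586-13265645 (plus). Exon annotation of that build was not used here. The match in JUNB is to miR-143-5p and that in IER2 to the shared seed of miR-30c-5p and miR-30a-5p.
FOS: agagggttcCTGTAGAcctagggagg
JUNB: cctggacgatCTGCACAagatgaacca
IER2: gggtctgtttTGTTTACctttcgtgcg

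None of these matches went with a ratio past 2-fold. With the matching miRNA, FOS was at 0.15 and JUNB at 0.17, both above 0. FOS turned to -0.14 against the mean of the 4 HCT116 mock channels. IER2 was at -0.13 after miR-30c-5p and -0.24 after miR-30a-5p, and both were above 0 under median centring, at 0.48 and 0.25. The parts of these transcripts outside the probes were not searched.

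FOSB, a paralogue of FOS, was at 0.02 after miR-139-5p, 0.08 after miR-139-3p, 0.25 after miR-143-5p and 0.16 under the miR-143-3p label. In PANC-1 it was at -0.03 after miR-30c-5p, 0.09 after miR-30c-2-3p, 0.05 after miR-30a-5p and 0.65 after miR-30a-3p. Its 1 value above 0.5 was that of miR-30a-3p, where the scanner's log ratio was 1.95. The probe was dim, with Cy3 intensity between 24.7 and 41.1 over 16 to 20, and after miR-139-3p the mock channel was not well above background.

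FOSL1, the FOS family member FRA-1, had 2 values at least 2-fold lower, and no other gene of the group had more than 1. In HCT116 its log2 ratio was 0.16 after miR-139-5p, -1.18 after miR-139-3p, -0.10 after miR-143-5p and -0.83 under the miR-143-3p label. In PANC-1 it was 0.10 after miR-30c-5p, -0.65 after miR-30c-2-3p, -0.27 after miR-30a-5p and -1.46 after miR-30a-3p. All 4 arrays of 3p strands were thus below all 4 arrays of 5p strands. This order held in all 7 ways of processing and was noticed after the values were seen. The share of all genes with the same order was not computed, so the order does not set FOSL1 apart. It counts the array labelled miR-143-3p, whose small seed difference had the opposite sign. Without that array it rests on 3 arrays of 3p strands. As folds, FOSL1 was 2.27-fold lower after miR-139-3p and 2.74-fold lower after miR-30a-3p, where it ranked 77th from the bottom of 22063 genes. The value for miR-139-3p stayed past 2-fold under all 7 ways of processing (-1.67 to -1.15), and that for miR-30a-3p came to -0.80 under median centring.

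The channel levels of FOSL1 hold the same ratios, so they are no separate check. The 4 mock levels of HCT116 were 8.24 to 8.94, and the transfected level was 7.06 after miR-139-3p and 8.02 under the miR-143-3p label, both below them, while 8.48 and 8.84 after miR-139-5p and miR-143-5p lay among them. Of all genes, 73.1% lay outside the HCT116 mocks after miR-139-3p and 68.4% under the miR-143-3p label. The mocks of PANC-1 lay at 9.68 to 9.78, and the transfected levels were 9.81 after miR-30c-5p, 9.03 after miR-30c-2-3p, 9.51 after miR-30a-5p and 8.27 after miR-30a-3p.

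JUN, the main partner of FOS proteins in AP-1, differed between the strands of the miR-30 precursors. In PANC-1 the log2 ratio was 1.12 after miR-30c-5p, -1.11 after miR-30c-2-3p, 0.62 after miR-30a-5p and -0.59 after miR-30a-3p. The 2 miRNAs with the shared seed had positive values and both 3p strands negative ones, though median centring turned that of miR-30a-3p to 0.08. JUN was 2.17-fold higher after miR-30c-5p, 102nd of 20887 genes, and 2.16-fold lower after miR-30c-2-3p. Under median centring the latter came to -0.94, and against the mean of the 4 PANC-1 mocks the value for miR-30c-5p came to 0.88.

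In HCT116, JUN was at -0.37 after miR-139-5p, 0.67 after miR-139-3p, 0.42 after miR-143-5p and 0.10 under the miR-143-3p label. None passed 2-fold, and the mock levels differed between the precursors. The mock channels read 6.91 and 6.95 on the 2 miR-139 arrays and 8.90 and 8.93 on the 2 miR-143 arrays. Against the mean of these 4, JUN was at -1.38, -0.30, 1.40 and 1.11 in the same order, so the sign for miR-139-3p turned and 3 values passed 2-fold.

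JUNB, another JUN family protein, varied least, from -0.14 to 0.30. Its log2 ratio was 0.12 after miR-139-5p, 0.22 after miR-139-3p, 0.17 after miR-143-5p and 0.30 under the miR-143-3p label, and in PANC-1, in the order of the sequences above, 0.01, -0.14, -0.03 and -0.09. The probe was dim, with a Cy3 intensity of 32.4 to 44.4 over 16 to 19. A small ratio there shows little about the transcript, since the offset pulls dim probes towards 0.

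IER2, a nuclear protein encoded by an intronless immediate early gene, had a bright probe, with Cy3 intensity between 4048 and 6188, and stayed within 2-fold. In HCT116 it was at 0.45 after miR-139-5p, 0.45 after miR-139-3p, -0.05 after miR-143-5p and -0.82 under the miR-143-3p label. In PANC-1 it was at -0.13 after miR-30c-5p, -0.42 after miR-30c-2-3p, -0.24 after miR-30a-5p and -0.37 after miR-30a-3p. IER2 and EGR1 were both lowest in HCT116 under the miR-143-3p label. Of these 4 negative values in PANC-1, that of miR-30c-2-3p stayed below 0 in all 7 ways of processing. The other 3 depend on the correction of the dyes by brightness, since under median centring they were 0.48 after miR-30c-5p, 0.25 after miR-30a-5p and 0.47 after miR-30a-3p.

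IER3, a stress-inducible protein that modulates ERK signalling and cell survival, held the lowest value of the group. Its log2 ratio in PANC-1 was 0.53 after miR-30c-5p, -0.77 after miR-30c-2-3p, 0.07 after miR-30a-5p and -1.63 after miR-30a-3p. In HCT116 it was 0.74 after miR-139-5p, -0.58 after miR-139-3p, 0.28 after miR-143-5p and -0.20 under the miR-143-3p label. As for FOSL1, all arrays labelled as 3p strands were below those of the 5p strands in all 7 ways of processing. Here the strands lay on either side of 0. Without the array labelled miR-143-3p this order too rests on 3 arrays of 3p strands. For IER3 as well, the share of all genes with the same order was not computed. After miR-30a-3p IER3 was 3.09-fold lower, 49th from the bottom of 22063 genes, and after miR-139-5p it ranked 51st from the top of 20443 genes at 1.67-fold. Median centring brought the value for miR-30a-3p to -0.84.

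A second IER3 probe measured the same transcript. It read 0.72, -0.39, 0.38 and -0.22 on the HCT116 arrays and 0.55, -0.70, 0.13 and -1.31 on the PANC-1 arrays, in the order in which the miRNAs are listed above. The 2 probes thus had the same sign on every array. FOSL1 and IER3 were the most alike pair in the group (r = 0.93, rho = 0.93 over the 8 arrays), a description with no test.

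DUSP1, the phosphatase that inactivates ERK, p38 and JNK, was higher with both miRNAs of the shared miR-30 seed. In PANC-1 its log2 ratio was 1.12 after miR-30c-5p, -0.49 after miR-30c-2-3p, 0.89 after miR-30a-5p and 0.23 after miR-30a-3p. In HCT116 it was 0.07 after miR-139-5p, -0.01 after miR-139-3p, 0.26 after miR-143-5p and -0.12 under the miR-143-3p label. After miR-30c-5p DUSP1 was 2.17-fold higher and ranked 100th of 20887 genes, and after miR-30a-5p it was 1.85-fold higher and ranked 100th of 20944. The mock levels were 8.54 and 8.61 on the miR-30c arrays and 8.96 and 8.98 on the miR-30a arrays, below the transfected levels of 9.65 after miR-30c-5p and 9.84 after miR-30a-5p. Of all genes, 67.8% lay outside the PANC-1 mocks after miR-30c-5p and 65.3% after miR-30a-5p. Against the mean of the 4 PANC-1 mocks the order of the 2 DUSP1 values turned, to 0.88 after miR-30c-5p and 1.07 after miR-30a-5p.

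DUSP1 is the gene of the group whose probe was printed 10 times, which gives the error of a spot. The SD over its spots was 0.03 to 0.07 per array, over 9 spots on the miR-139-5p array and 10 on the others. The spots ran from 1.07 to 1.18 after miR-30c-5p, from 0.84 to 0.92 after miR-30a-5p and from -0.58 to -0.42 after miR-30c-2-3p, without overlap between these arrays. This spread is that of spots within 1 hybridisation and leaves out the spread between RNA samples: the mocks of PANC-1 differed by 0.39 for DUSP1 between precursors.

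**Figure D3:**
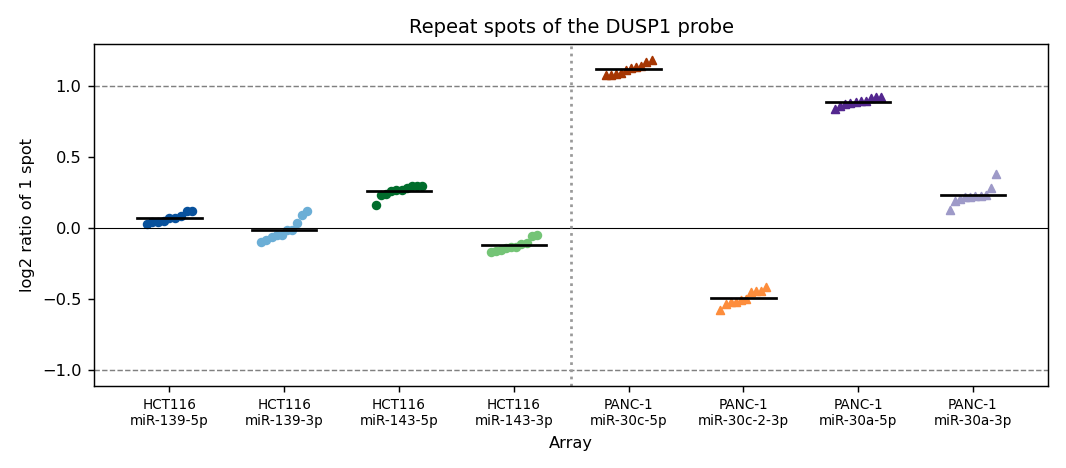
Log2 ratio of each repeat spot of the DUSP1 probe (y axis) on each array (x axis), with the mean of the spots as a bar and dashed lines at 2-fold. The spots of the miR-30c-5p array lie between 1.07 and 1.18 and those of miR-30a-5p between 0.84 and 0.92.

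The DUSP1 promoter is shown with its cAMP response element (TGACGTCA, in 1.65% of promoters), at -125 to -118 from the start, in capitals. It lies at chr5:172771196-172771445 (GRCh38.p14, minus strand) and also held TATAAA, as did those of FOS, FOSB and JUNB (10.7% of all promoters). The AP-1 site TGANTCA, in 6.57% of promoters, was in none of the 8 promoters. That says only that these letters are not in the windows searched.
DUSP1 promoter: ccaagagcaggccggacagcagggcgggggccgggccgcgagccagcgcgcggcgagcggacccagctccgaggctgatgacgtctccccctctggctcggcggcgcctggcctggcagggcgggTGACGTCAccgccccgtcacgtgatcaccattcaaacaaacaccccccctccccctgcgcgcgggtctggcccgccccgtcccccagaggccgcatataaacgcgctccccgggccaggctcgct

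The mock channels show how far the genes differed between mocks, without any miRNA. Each line has 4 mock channels, 2 for each precursor, so culture, RNA, labelling and hybridisation cannot be told apart in a difference between precursors. The 2 mocks of a precursor differed by at most 0.16 on the log2 scale for any of the 10 genes, and the labels do not say whether they are the same RNA. Between precursors of a line, the SD of the difference over all genes was 0.30 in HCT116 and 0.17 in PANC-1.

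JUN differed most. The mock of the miR-139 arrays gave a level of 6.93 and that of the miR-143 arrays 8.91, a difference of 1.99 or 3.97-fold, the 16th highest of 17659 genes. EGR1 was at 8.46 and 9.59, a difference of 1.13 (2.18-fold, 101st), DUSP1 at 6.74 and 7.68, a difference of 0.94, FOS at 6.31 and 6.93, and FOSL1 at 8.28 and 8.89. EGR2, FOSB, JUNB, IER2 and IER3 differed by 0.06 to 0.28, within that SD. Of the 9 genes above background in all 4 mock channels (FOSB was not), 2, JUN and EGR1, were at least 2-fold higher in the mock of the miR-143 arrays, beside 0.821% of all genes, and 0 were lower, beside 0.362%.

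In PANC-1 the mocks were closer. JUN was at 8.96 on the miR-30c arrays and 9.48 on the miR-30a arrays, IER3 at 11.46 and 11.89, and DUSP1 at 8.57 and 8.97. EGR1 was at 7.45 and 7.43. Of the 9 genes above background in all 4 channels (EGR2 was not), 0 were at least 2-fold higher on the miR-30a arrays, beside 0.162% of all genes, and 0 were lower, beside 0.0724%.

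**Figure D4:**
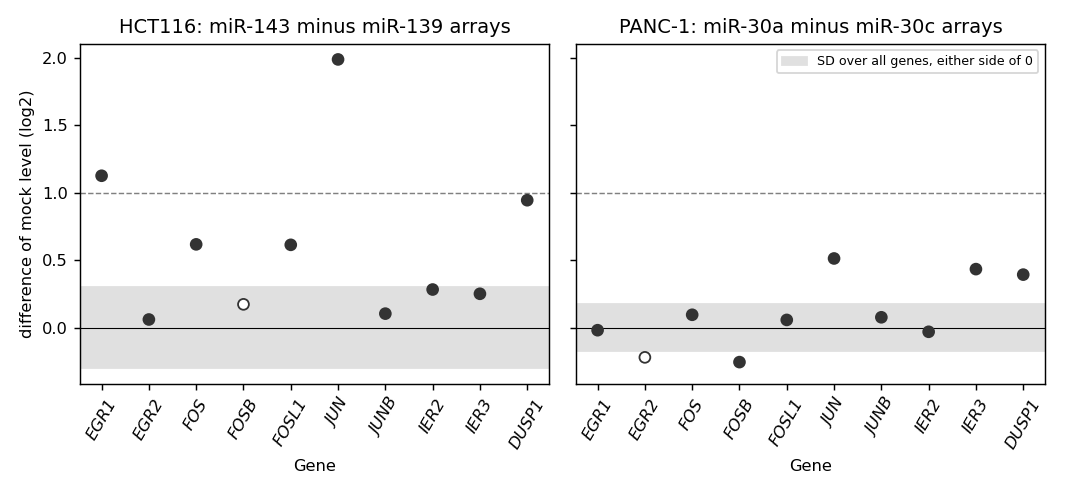
Difference of the mean mock level between the arrays of the 2 precursors of each line (log2, y axis) for the 10 genes, with the band showing 1 SD of that difference over all genes and open circles for genes not well above background in all 4 mock channels. In HCT116 JUN was at 1.99 and EGR1 at 1.13, above the dashed line at 2-fold, and in PANC-1 no gene reached it.

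Across the lines, 8 genes were above background in all mock channels of both. Mock levels were compared as the mean of each precursor, 2 values per line. On these means, 8 genes did not overlap between HCT116 and PANC-1, as was true of 74.8% of all genes. Of the 8 genes, 5 were also at least 2-fold apart, beside 12.1%. By single mock channels JUNB overlapped, with a lowest level of 6.236 in HCT116 and a highest of 6.242 in PANC-1. EGR1 (9.03 in HCT116 and 7.44 in PANC-1, 2.99-fold) and IER3 (12.95 and 11.68, 2.42-fold) were higher in HCT116. DUSP1 (7.21 and 8.77, 2.95-fold), JUN (7.92 and 9.22, 2.46-fold) and FOSL1 (8.59 and 9.72, 2.20-fold) were higher in PANC-1. For JUN the PANC-1 level exceeded the HCT116 mean mainly through the mocks of the miR-139 arrays at 6.93, since those of the miR-143 arrays, at 8.91, were close to 8.96 in the miR-30c mocks. FOS (6.62 and 6.06), JUNB (6.29 and 6.18) and IER2 (12.70 and 12.25) were less than 2-fold apart. No test was made, because the 4 mock channels of a line may stem from 2 RNAs.

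The 9 values past 2-fold kept their sign under each of 7 ways of processing, and the plot of settings gives them all. EGR1 on 3 arrays and FOSL1 after miR-139-3p stayed past 2-fold in all 7, and the other 5 values fell short in 1. Of all 79 detected values, 55 kept their sign under every setting and 24 did not, the largest of those being JUN after miR-139-3p at 0.67. A change of the mock to the mean of the line turned 15 of them and median centring 13. Signs were read against 0, and centring raised the median of all genes by 0.02 to 0.28. EGR1 after miR-30c-5p, for one, turned to 0.04 where the median of all genes was 0.21.

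**Figure D5:**
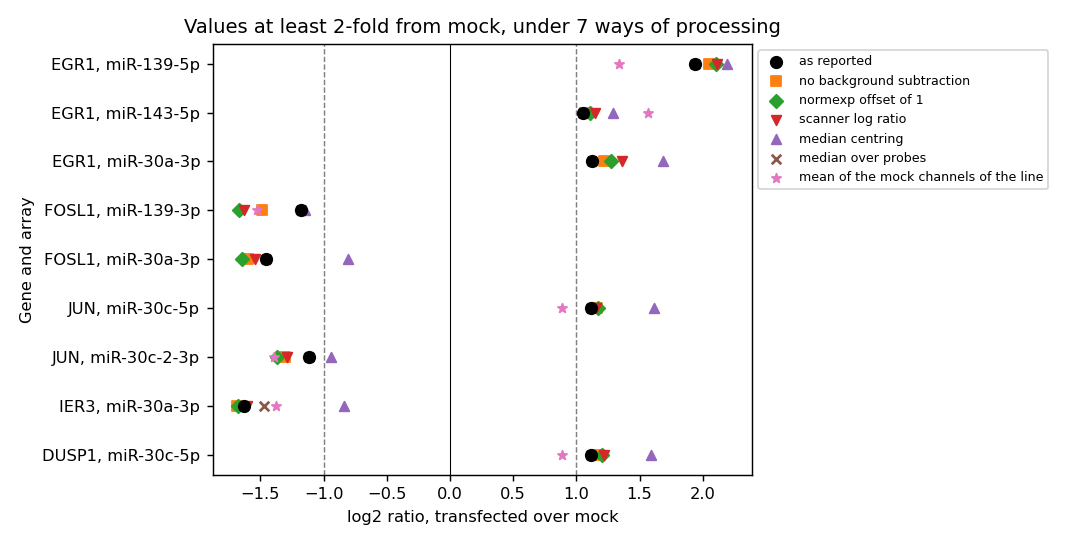
Log2 ratio (x axis) of the 9 values at least 2-fold from mock (y axis, gene and miRNA) under 7 ways of processing, 1 symbol each, with dashed lines at 2-fold. Median centring brought FOSL1 and IER3 after miR-30a-3p to -0.80 and -0.84, and the mean of the line's mocks brought JUN and DUSP1 after miR-30c-5p to 0.88.

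The other genes of the pathway were read from 5 lists, and their counts stand against the percentages of all genes given above. Among 27 other immediate early genes, miR-139-3p had 5 at least 2-fold higher and 2 lower of 24 detected, with a median of 0.49. BTG2, an antiproliferative gene, was at 1.88, GADD45B, a stress gene, at 1.38, the nuclear receptors NR4A3 and NR4A2 at 1.31 and 1.19, and CYR61, a matricellular protein gene, at 1.11. MYC, the growth regulator, was at -2.92 and TRIB1, a pseudokinase gene, at -1.69. On the same array EGR1 was at 0.48, FOS at 0.46 and FOSL1 at -1.18. After miR-139-5p, where EGR1 was at 1.94, 0 of 25 passed 2-fold in either direction and the median was 0.00.

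After miR-143-5p 1 of 25 was higher, CYR61 at 1.31, and 0 were lower. Under the miR-143-3p label 0 of 24 were higher and 1 lower, MYC at -1.08. After miR-30c-5p 3 of 23 were higher and 0 lower, with a median of 0.40: CTGF, a matricellular protein gene like CYR61, at 1.90, SGK1, a kinase gene, at 1.76, and ATF3, a stress-induced partner of JUN, at 1.54. On the miR-30a-5p array 2 of 25 were higher, CTGF at 1.66 and SGK1 at 1.39, and 0 lower. After miR-30c-2-3p 1 of 23 was higher, ATF3 at 1.84, and 3 were lower, MYC at -1.70, IER5, a serum-induced gene, at -1.19 and KLF6, a zinc finger factor, at -1.17. The miR-30a-3p array had 2 of 25 higher, ATF3 at 1.43 and TRIB1 at 1.10, and 0 lower. ATF3 was thus past 2-fold on 3 arrays, after miR-30c-5p, miR-30c-2-3p and miR-30a-3p, where its partner JUN was at 1.12, -1.11 and -0.59.

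The second list held 21 feedback and delayed early genes of the ERK pathway. DUSP5, a nuclear ERK phosphatase, was at 2.02 after miR-30c-5p and 1.53 after miR-30a-5p, the arrays on which DUSP1 was at 1.12 and 0.89, and at -1.10 after miR-139-3p. SPRY4, an inhibitor of receptor signalling, was at 1.01 after miR-30c-5p. The ERK phosphatase DUSP6 was at 1.20 after miR-30c-2-3p, and DUSP4 was at -1.09 after miR-139-3p. DUSP8 was at 1.05 after miR-139-3p and 1.01 under the miR-143-3p label. EREG, an EGFR ligand gene, was at 1.19 after miR-139-5p and -1.21 after miR-143-5p, while EGR1 was past 2-fold higher on both. PHLDA1 was at 1.36 after miR-139-3p, -1.15 after miR-30c-2-3p and -1.92 after miR-30a-3p. EPHA2, a receptor gene, was at 1.18 after miR-139-3p and LIF, a cytokine gene, at -1.14 after miR-30c-2-3p.

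Counts on that list were 1 higher and 0 lower of 19 detected after miR-139-5p, 3 and 2 of 21 after miR-139-3p, 0 and 1 of 20 after miR-143-5p, and 1 and 0 of 20 under the miR-143-3p label. In PANC-1 they were 2 and 0 of 20 after miR-30c-5p, 1 and 2 of 19 after miR-30c-2-3p, 1 and 0 of 21 after miR-30a-5p, and 0 and 1 of 21 after miR-30a-3p.

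The 25 kinases and factors upstream of the immediate early genes were all detected on every array, and few passed 2-fold. After miR-143-5p RPS6KA5 and RPS6KA4, the kinases MSK1 and MSK2 that act on histones and CREB at these genes, were at -1.33 and -1.10. RPS6KA5 was also at -1.27 under the miR-143-3p label. ARAF, a kinase of the ERK cascade, was at -1.10 after miR-30c-2-3p. On the other 5 arrays 0 of 25 passed in either direction, and 0 were higher on any array. Of 13 further AP-1 partners, 11 were detected on each array, and the 1 gene past 2-fold was ATF3, which is also on the first list.

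Of 23 known target genes of AP-1 and EGR proteins, 16 to 19 were detected per array. NAB2, a corepressor of EGR1 that EGR1 itself induces, was at 1.27 after miR-139-5p, 1.49 after miR-139-3p, -0.32 after miR-143-5p and -0.48 under the miR-143-3p label. In PANC-1 NAB2 was at 0.20 after miR-30c-5p, -1.26 after miR-30c-2-3p, 0.24 after miR-30a-5p and 0.17 after miR-30a-3p. It was thus past 2-fold on 1 of the 3 arrays on which EGR1 was. PLAU, the urokinase gene and an AP-1 target, was at -2.29 after miR-139-3p, -1.94 after miR-30c-2-3p and -2.48 after miR-30a-3p, where FOSL1 was at -1.18, -0.65 and -1.46, and at -0.02 under the miR-143-3p label, where FOSL1 was at -0.83. HMOX1, heme oxygenase, was at 1.98 after miR-30c-5p, -2.29 after miR-30c-2-3p and -1.59 after miR-30a-3p, on which JUN was at 1.12, -1.11 and -0.59.

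F3, tissue factor, was at -1.48 after miR-139-3p, -1.53 after miR-143-5p and 1.12 after miR-30a-3p. VEGFA, an angiogenic factor gene, was at -1.40 after miR-30c-2-3p. The counts were 1 higher and 0 lower after miR-139-5p, 1 and 2 after miR-139-3p, and 0 and 1 after miR-143-5p. They were 0 and 4 after miR-30c-2-3p, 0 and 0 after miR-30a-5p, and 1 and 2 after miR-30a-3p, and those of the other 2 arrays are not reported here. None of the 7 epithelial markers, and none of the markers of cells that the lines should lack, passed 2-fold on any array. Of the 6 mesenchymal markers 1 did, VIM, lower in PANC-1 at -1.63 after miR-30c-5p, -1.35 after miR-30c-2-3p and -1.65 after miR-30a-5p, and its part in the values of the members was not tested.

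For 4 members, the genes with the most similar log2 ratios over the 8 arrays were looked up, and up to 3 are named for each. The 4995 candidates were above background in both dyes on all arrays. They also had a RefSeq symbol or synonym and a range of log2 ratio of at least 1, so genes that varied less were not searched. With n = 8 and so many candidates, high values are usual, and the arrays of a precursor share near-identical mocks, so no p is given. EGR1 was most like the histone gene HIST1H4C (now H4C3, r = 0.91, rho = 0.88) and the histone gene HIST1H4L (now H4C13, r = 0.89, rho = 0.90). FOS was most like TMEM55A (now PIP4P2, r = 0.95, rho = 0.98), PLGRKT (r = 0.92, rho = 0.95) and C11orf54 (r = 0.92, rho = 0.86). FOSL1 was most like DCUN1D5 (r = 0.96, rho = 0.93), MAP2K3 (r = 0.94, rho = 0.79) and EMB (r = 0.94, rho = 0.98). DUSP1 was most like METAP1 (r = 0.96, rho = 0.90), ANKRD27 (r = 0.96, rho = 0.88) and MFGE8 (r = 0.95, rho = 0.88). Members were left out of this search, and within the group JUN and DUSP1 came next by Pearson r after FOSL1 and IER3, with r = 0.75. By rho (0.62) several pairs stood above JUN and DUSP1, EGR1 with FOS and EGR2 with FOS at 0.79 first among them.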

How the data were processed

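The authors deposited Agilent Feature Extraction output of 8 two-colour arrays, with a mean and a background intensity per spot and dye, and a table of log10 ratios that equals the scanner's log ratio on all 8 arrays. Per the file headers, probe positions are on hg19. Intensities were processed with limma 3.58.1 (R 4.3.3): normexp background correction with an offset of 50, loess within each array with control spots at weight 0, removal of control and outlier spots, and averaging of the spots of a probe. Each gene was read from its probe with the highest mean signal. The ratio is log2 of Cy5 over Cy3, and channel levels come after quantile normalisation of mean signals between arrays. Outlier spots numbered 75 to 129 on an array, and the files mark no saturated one. The number of arrays, 1 per miRNA, limits the precision. The normalisation was tested on simulated data in which only bright probes were changed. That test does not cover dim probes such as those of EGR2, FOSB and JUNB.

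Named were all 10 members, genes of the lists at least 2-fold from mock on any array (up to 6 per list and array), up to 3 genes of similar pattern for EGR1, FOS, FOSL1 and DUSP1, and promoters of members past 2-fold with a serum or cAMP response element. Some genes that these rules select, and counts that rest on them, are not reported here. The members and lists were chosen with earlier results of these data known. Of the gene names, 21081 matched RefSeq symbols and 1624 older synonyms. Alternatives were no background subtraction, an offset of 1, the scanner log ratio, median centring without loess, the median over probes, the mean of the line's mock channels and no filter on dim probes. Leaving out the array labelled miR-143-3p was added after seeing the data.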

Additional observations from a re-analysis of the deposited data

How the results depend on the processing

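No paired analysis was possible because each miRNA has 1 array and no replicate. None of the 9 values past 2-fold changed sign under any alternative. A value was taken as moved where it changed by more than the SD between mocks of the line, or a count by more than 1.5 times. Of 474 values of single members under the alternatives, 358 stayed within that SD and 116 moved. For medians and counts 144 of 175 stayed and 31 moved, and for mock differences 31 of 40 stayed and 9 moved. Centring without loess shifted the median of all genes by 0.02 to 0.28.

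The median of the members came to 0.44 after miR-139-5p, 0.64 after miR-139-3p and -0.70 after miR-30c-2-3p by the scanner log ratio, and to -0.70 after miR-30c-2-3p at an offset of 1. Against the mean of the line's mocks it came to -0.03 (-0.0299) after miR-139-3p. Under median centring it came to 0.31 after miR-30c-5p, -0.26 after miR-30c-2-3p and 0.53 after miR-30a-3p. The median of all genes on these arrays under centring was 0.21, 0.08 and 0.30.

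The number at least 2-fold higher came to 2 after miR-139-5p and 1 after miR-30a-5p under centring, and to 3 after miR-139-3p and 4 after miR-30a-3p both at an offset of 1 and by the scanner log ratio. Without background subtraction it came to 2 after miR-30a-3p. Against the mean of the line's mocks it came to 2 after miR-143-5p, 1 under the miR-143-3p label, 0 after miR-30c-5p and 1 after miR-30a-5p.

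The number at least 2-fold lower came to 1 after miR-139-5p against the line's mocks, to 1 under the miR-143-3p label and 2 after miR-30c-2-3p both without background subtraction and at an offset of 1, and to 1 after miR-30c-5p at an offset of 1 and by the scanner log ratio. It came to 3 after miR-30c-2-3p by the scanner log ratio, and to 0 after miR-30c-2-3p and after miR-30a-3p under centring. Over all arrays, 18 values passed 2-fold at an offset of 1 and 18 by the scanner log ratio, in place of 9. The cause was not tested. EGR2, FOS, FOSB and JUNB had dim probes in the mock channel on every array, at a Cy3 intensity of 85.3 or less. The size of their ratios moved with the processing. On the miR-139-5p and miR-139-3p arrays JUN (77.8 and 77.5) and DUSP1 (61.9 and 65.9) were below 85.3 too. At an offset of 1 the added values also held JUN after miR-139-3p at 1.04 and EGR1, at -1.02 under the miR-143-3p label and -1.41 after miR-30c-2-3p.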
